A study of Mus musculus with 4 samples.

Results

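The genes of de novo lipogenesis, the pathway by which the liver makes fatty acids from carbohydrate, were examined in Cont and Drp1LiKO livers before and after refeeding. The 10 genes were Acly, Acaca, Fasn, Me1, Elovl6, Scd1, Srebf1, Mlxipl, Thrsp and Pnpla3, taken as all gene probes whose gene name in the scanner files is one of these symbols. They are represented by 18 of the 39429 gene probes of the array, and 5 of the genes have several probes. Liver RNA from male C57BL/6J mice was measured on 4 one-color Agilent arrays, 1 array for each combination of 2 genotypes and 2 feeding states. Drp1LiKO mice lack Drp1, the GTPase of mitochondrial fission, in the liver through Cre recombinase driven by the albumin promoter, which acts in hepatocytes, and Cont mice are littermates with the floxed gene and no Cre. Drp1 therefore remains in the other cells of the liver. All 4 mice had received a high-fat diet for 24 weeks, so no array shows these genes on chow, and the labels give no age. Refed livers were taken after 17 h without food and 4 h of feeding, by the series description. For the other 2 livers the labels give no feeding state, and state that their raw data were also part of earlier submissions. They are taken to be fasted because the paper describes them so, and every change on refeeding given here rests on that reading. By the study's methods fasted livers were collected in the morning and refed livers in the early afternoon, so feeding state and time of day cannot be told apart.

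In de novo lipogenesis, citrate exported from mitochondria is split by ATP citrate lyase (Acly) into acetyl-CoA, which acetyl-CoA carboxylase (Acaca) converts to malonyl-CoA. Fatty acid synthase (Fasn) builds palmitate from both, with NADPH that is supplied in part by malic enzyme (Me1). Elovl6 elongates palmitate to stearate, and Scd1 introduces the double bond that gives palmitoleate and oleate. A meal induces these enzymes through 2 transcription factors: SREBP-1c, encoded by Srebf1, is activated by insulin, and ChREBP, encoded by Mlxipl, by products of glucose metabolism. Thrsp (Spot 14) is a lipogenic protein induced by carbohydrate and thyroid hormone, and Pnpla3 is a lipid droplet protein under the control of SREBP-1c. Together they make the pathway one of the most responsive of the liver to fasting and refeeding.

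The probes are 60 bases long and are placed on the mm9 build by the scanner files. Of the 4 probes of Acaca, 2 share a run of 55 bases and measure nearly the same stretch, and their ends are shown because they are the brightest reading of the gene, with the bases outside the shared run in capitals. In the file the A_55_P2019058 probe lies on chr11:84215093-84215152 and the A_55_P2084706 probe on chr12:10166955-10167014, both on the plus strand.
A_55_P2019058: tgttgaaataaacctccacatttgtaGAAG
A_55_P2084706: gttgaaataaacctccacatttgtaAAAAA

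Fasn, Srebf1 and Thrsp passed 2-fold on refeeding in both genotypes. For Fasn and Thrsp the 250 bases before their RefSeq start sites on GRCm38.p6 are shown. The letters CCAAT, the core of the box bound by NF-Y, are in capitals on either strand. Srebf1, which has 3 promoter windows, is not shown. The Fasn stretch is chr11:120824548-120824797 on the minus strand, and the Thrsp stretch is chr7:97417551-97417800 on the minus strand.
Fasn: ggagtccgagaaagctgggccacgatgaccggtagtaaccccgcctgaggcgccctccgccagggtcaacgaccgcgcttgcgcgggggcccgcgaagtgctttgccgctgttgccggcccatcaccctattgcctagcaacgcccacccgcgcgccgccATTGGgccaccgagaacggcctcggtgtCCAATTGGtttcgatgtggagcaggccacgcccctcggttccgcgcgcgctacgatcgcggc
Thrsp: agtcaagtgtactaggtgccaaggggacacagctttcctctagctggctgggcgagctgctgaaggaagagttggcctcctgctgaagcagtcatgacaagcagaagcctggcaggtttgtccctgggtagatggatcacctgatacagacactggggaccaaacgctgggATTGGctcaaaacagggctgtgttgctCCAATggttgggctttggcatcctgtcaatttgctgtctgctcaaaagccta
The Fasn stretch holds CCAAT in 3 places, beginning 90, 62 and 59 bases before the start, and the last 2 overlap each other on opposite strands. The Thrsp stretch holds it beginning 79 and 52 bases before the start. CCAAT is common: 37.4% of the 32851 promoter windows of the table (300 bases, both strands) hold it. Among the members, the only windows of Fasn, Acly, Thrsp and Pnpla3 hold it. So do 1 of 2 windows of Me1, 2 of 3 of Srebf1 and 1 of 2 of Mlxipl. The only windows of Acaca and Elovl6 do not. The share is per window, so a gene with several windows has more chances to hold the letters. The letters CACGTG, a perfect E-box, were found in 7.15% of windows and, among the members, in 1 of 2 windows of Mlxipl. The letters TCACNCCAC, one form of the sterol response element, were found in 1.24% of windows and, among the members, in the other Mlxipl window. Scd1 has no entry in the table.

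Levels are given on the log2 scale relative to the 75th percentile of the array, so that 0 is the signal that 75% of gene spots do not exceed. The standard error (SE) is the one the scanner attaches to each spot, and so covers measurement on the array only, without differences between mice. For bright probes it comes almost wholly from a multiplicative error term of 0.1 given in the file headers. It is therefore nearly the same for all bright probes, and 2 SEs amount to a nearly fixed fold limit there. A difference was called at 2-fold or more with the brighter signal well above background by the scanner's own test. With 1 array a group there is no replicate, and no p-value exists for a change within a genotype or for the difference between genotypes. In whole liver, fewer cells of a type and less RNA per cell cannot be told apart. Dnm1l, the gene that encodes Drp1, has 1 probe. On the log2 scale it was at -0.21 (SE 0.20) in Drp1LiKO minus Cont on the fasted arrays and at -0.12 (SE 0.20) on the refed arrays. The place of this probe relative to the deleted exons is not known, so it does not check the genotype labels. The 75th percentile of the signal was between 357 and 722, between 48.7% and 58.2% of spots were well above background, and no spot was saturated.

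Of the 10 genes, 9 were well above background on all 4 arrays through at least 1 probe. In Cont livers 8 of these 9 were higher on the refed than on the fasted array, where 61.5% of all genes were, and Fasn, Srebf1 and Thrsp passed 2-fold. In Drp1LiKO livers 6 were higher, a share near the 59.1% of all genes, and all 6 passed 2-fold: Acly, Acaca, Fasn, Elovl6, Srebf1 and Thrsp. The remaining 3 genes, Me1, Scd1 and Mlxipl, were lower on the refed Drp1LiKO array, none by 2-fold. The median log2 change of the 9 genes was 0.58 in Cont and 1.34 in Drp1LiKO livers, against 0.11 and 0.11 for all 14458 genes that were well above background on every array. Among all genes that could be called, 4.48% were at least 2-fold higher on refeeding in Cont and 5.61% in Drp1LiKO livers, and 5.83% and 7.15% were at least 2-fold lower. Among genes well above background on both arrays compared, the shares of higher genes were 1.69% and 3.23%. The 2 comparisons share no array.

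**Figure D1:**
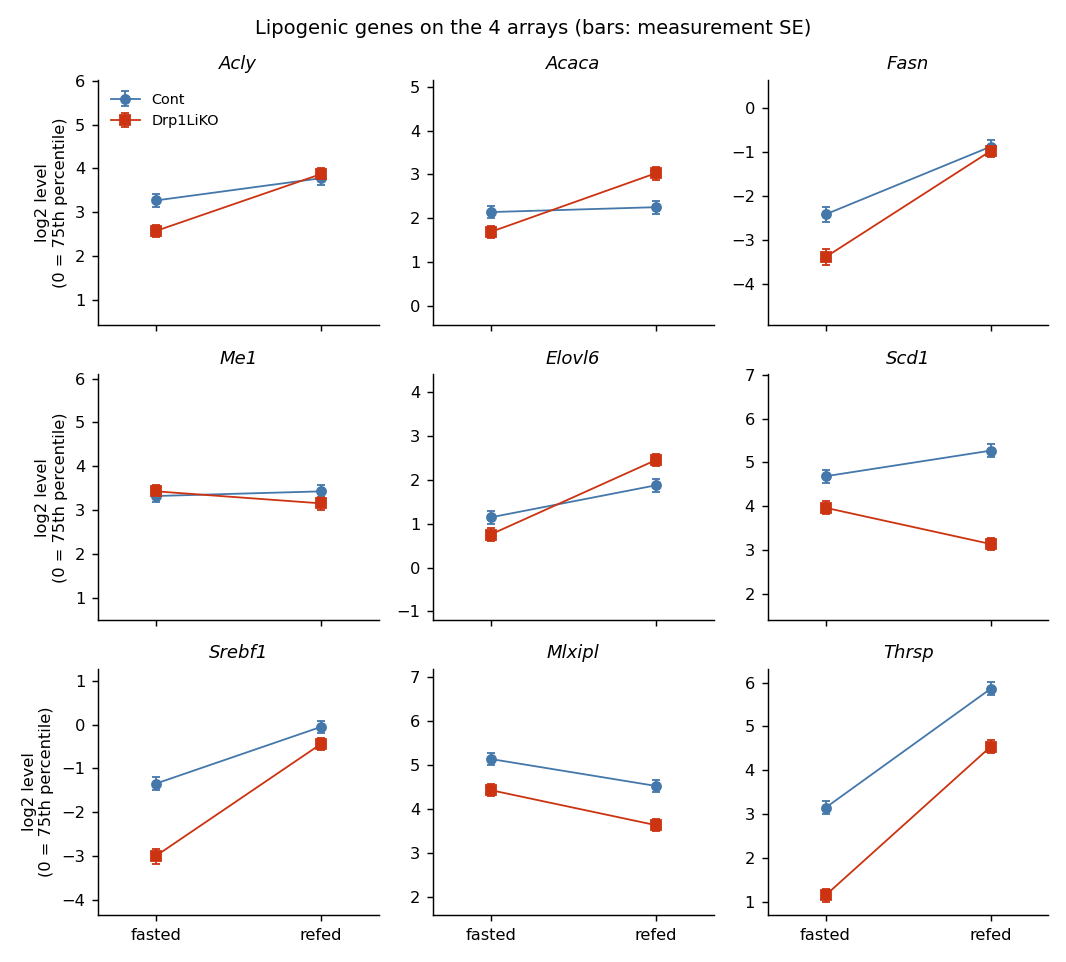
Log2 level of the 9 measured lipogenic genes (y axis, 0 is the 75th percentile of the array) on the fasted and refed arrays of Cont (blue circles) and Drp1LiKO (red squares) livers, 1 array a point, with the measurement SE as bars. Each y axis spans the same range. In Acly, Acaca, Fasn, Elovl6, Srebf1 and Thrsp the Drp1LiKO line starts below the Cont line and climbs more steeply, while in Scd1 the lines part.

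Acly, which supplies the acetyl-CoA, is read from a probe on chr11:100337674-100337733 (minus strand). Its log2 level was 3.27 on the fasted Cont, 3.78 on the refed Cont, 2.57 on the fasted Drp1LiKO and 3.87 on the refed Drp1LiKO array. The fasted Drp1LiKO array was thus the low one, and the refed arrays of both genotypes were alike. The change on refeeding was 0.51 (SE 0.20) in Cont and 1.3 (SE 0.20) in Drp1LiKO livers, that is 1.42-fold and 2.46-fold. A second Acly probe, on chr11:100365518-100365577, was dim and well above background only on the Drp1LiKO arrays, where it changed by 1.08 (SE 0.39).

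Acaca, the enzyme of the committed step, had log2 levels of 2.14 on the fasted Cont, 2.25 on the refed Cont, 1.69 on the fasted Drp1LiKO and 3.03 on the refed Drp1LiKO array with the brightest probe. The refed Drp1LiKO array was the highest and the fasted Drp1LiKO array the lowest, while both Cont arrays were alike. The change on refeeding was 0.11 (SE 0.20) in Cont and 1.34 (SE 0.20, 2.53-fold) in Drp1LiKO livers. The overlapping probe placed on chromosome 12 gave 0.03 and 1.23, which adds little, since it reads the same bases. Another probe, on chr11:84009021-84009080 and near the lower end of the signal range, gave 0.76 (SE 0.29) in Cont and 1.23 (SE 0.24) in Drp1LiKO livers, so that the gap between the genotypes was 0.48 (SE 0.38) with it and 1.23 (SE 0.29) with the brightest probe. The fourth probe, on chr11:84211638-84211697, was well above background on the refed Cont array alone. It was at least 1.87-fold higher there than on the fasted Cont array and at least 2.74-fold higher than on the refed Drp1LiKO array, each a bound, set by whichever was brighter on the dim array, this probe or the faintest signal still well above background. The Acaca probes thus disagree on which refed liver was higher.

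Fasn, which makes palmitate, is read from 1 probe on chr11:120667666-120667725 (minus strand). Its log2 level was -2.42 on the fasted Cont, -0.88 on the refed Cont, -3.40 on the fasted Drp1LiKO and -0.98 on the refed Drp1LiKO array. Both refed arrays were above both fasted arrays, and the refed arrays differed by 0.10 on the log2 scale, less than the measurement SE of 0.21. The change was 1.54 (SE 0.23, 2.92-fold) in Cont and 2.42 (SE 0.24, 5.35-fold) in Drp1LiKO livers. Among the 14458 genes it ranked 71 from the top in Cont and 14 in Drp1LiKO livers.

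Me1, a source of cytosolic NADPH, was read by 3 probes, all well above background on all 4 arrays. With the brightest, on chr9:86475077-86475136 (minus strand), the log2 levels were 3.32 on the fasted Cont, 3.43 on the refed Cont, 3.43 on the fasted Drp1LiKO and 3.16 on the refed Drp1LiKO array. These lie within a narrow range, and with this probe no array stood apart. The change was 0.11 (SE 0.20) in Cont and -0.27 (SE 0.20) in Drp1LiKO livers. The other probes gave 0.02 and 0.02 in Cont and -0.80 and -0.45 in Drp1LiKO livers, so all 3 probes were lower on the refed Drp1LiKO array and none was above 2-fold.

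Elovl6, which elongates palmitate, is read from a probe on chr3:129341248-129341307 (plus strand). Its log2 level was 1.14 on the fasted Cont, 1.87 on the refed Cont, 0.75 on the fasted Drp1LiKO and 2.45 on the refed Drp1LiKO array. The Drp1LiKO arrays were the lowest and the highest of the 4. The change was 0.73 (SE 0.20, 1.66-fold) in Cont and 1.7 (SE 0.20, 3.24-fold) in Drp1LiKO livers.

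Scd1, which desaturates the products of Fasn and Elovl6, went the other way. Its probe lies on chr19:44469387-44469446 (minus strand), and its log2 level was 4.68 on the fasted Cont, 5.27 on the refed Cont, 3.97 on the fasted Drp1LiKO and 3.14 on the refed Drp1LiKO array. Both Drp1LiKO arrays were below both Cont arrays, and the refed Drp1LiKO array was the lowest. The change was 0.58 (SE 0.20, 1.5-fold higher) in Cont and -0.83 (SE 0.20, 1.77-fold lower) in Drp1LiKO livers. On the refed arrays Scd1 was 4.37-fold lower in the Drp1LiKO liver, the largest genotype difference among the 9 genes and place 69 from the bottom among the 14458 genes. With quantile normalization the change in Drp1LiKO livers was -1.09 and passed 2-fold, as did that of Mlxipl, also at -1.09.

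Srebf1 is read from 1 probe on chr11:60012664-60012723 (minus strand), so the array gives no separate value for the SREBP-1a and SREBP-1c transcripts. Its log2 level was -1.35 on the fasted Cont, -0.06 on the refed Cont, -3.0 on the fasted Drp1LiKO and -0.45 on the refed Drp1LiKO array. The fasted Drp1LiKO array stood far below the other 3. The change was 1.29 (SE 0.21, 2.45-fold) in Cont and 2.55 (SE 0.22, 5.86-fold) in Drp1LiKO livers, at rank 111 and rank 9 among the 14458 genes.

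Mlxipl is the member that was lower after refeeding in both genotypes. With the brighter probe, on chr5:135613705-135613764 (plus strand), its log2 level was 5.14 on the fasted Cont, 4.52 on the refed Cont, 4.43 on the fasted Drp1LiKO and 3.63 on the refed Drp1LiKO array. The change was -0.61 (SE 0.20) in Cont and -0.80 (SE 0.20) in Drp1LiKO livers. A second probe, on chr5:135614195-135614254, gave -1.01 in Cont, which is 2.02-fold lower, and -0.76 in Drp1LiKO livers, both with an SE of 0.20. Whether the bases of this dimmer probe also occur in other transcripts was not checked, so it may be a less specific reading of the gene. Both probes were lower on refeeding in both genotypes, but they differ in sign for the gap between the genotypes, at -0.18 and 0.26 (SE 0.29 each).

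Thrsp had the largest change of the 9 genes. Its probe lies on chr7:104561649-104561708 (minus strand), and its log2 level was 3.15 on the fasted Cont, 5.86 on the refed Cont, 1.15 on the fasted Drp1LiKO and 4.54 on the refed Drp1LiKO array. Both refed arrays were above both fasted arrays, and in each feeding state the Drp1LiKO array was below the Cont array. The change was 2.71 (SE 0.20, 6.55-fold) in Cont and 3.39 (SE 0.20, 10.5-fold) in Drp1LiKO livers, at rank 13 and rank 4 among the 14458 genes. Pnpla3 could not be read: its 2 probes, on chr15:84019823-84019882 and chr15:84016440-84016499, were not well above background on any array.

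**Figure D2:**
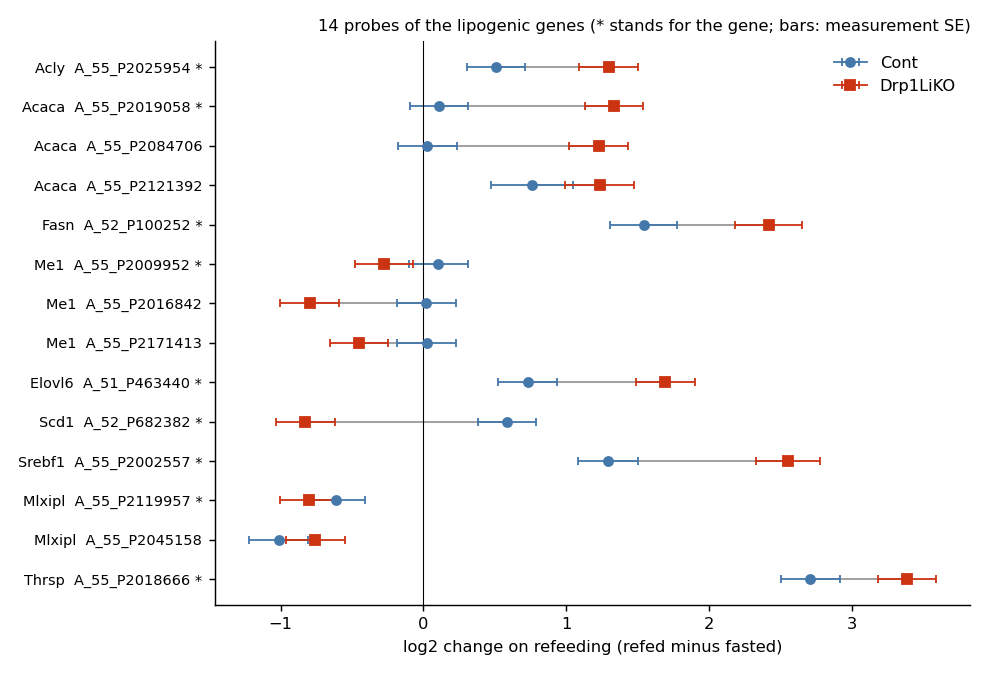
Log2 change on refeeding (x axis, refed minus fasted) for the 14 member probes well above background on all 4 arrays, with Cont in blue circles, Drp1LiKO in red squares and the measurement SE as bars. An asterisk marks the probe that stands for its gene, and the red square lies to the right of the blue circle for the probes of Acly, Acaca, Fasn, Elovl6, Srebf1 and Thrsp and to the left for those of Me1 and Scd1.

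The difference between the changes on refeeding (Drp1LiKO minus Cont) was above 0 for 6 genes and below 0 for 3, where it was above 0 for 54.5% of all genes, with a median of 0.79 on the log2 scale against 0.04 over the 14458 genes. It was 1.26 (SE 0.31) for Srebf1, 1.23 (SE 0.29) for Acaca, 0.97 (SE 0.29) for Elovl6, 0.88 (SE 0.33) for Fasn, 0.79 (SE 0.29) for Acly and 0.68 (SE 0.29) for Thrsp. All 6 exceed 2 measurement SEs, and neighbors in this order differ by less than 1 SE. Srebf1 and Acaca passed 2-fold, where 3.10% of all genes did. Scd1, at -1.41 (SE 0.29), passed 2-fold in the other direction, where 3.68% of all genes did. Me1 was at -0.38 (SE 0.29) and Mlxipl at -0.18 (SE 0.29), both within 2 SEs of 0 with the probes that stand for them. The other Me1 probes gave -0.82 and -0.47 (SE 0.29 each), the first of them beyond 2 SEs. Over all genes 491 were called higher and 582 lower, and with median scaling 625 higher and 486 lower, so the balance of the background depends on the scaling. Median scaling moved the median difference of all genes from 0.04 to 0.15, and under it Elovl6 also passed 2-fold. With normexp background correction Srebf1 was at 0.90 and Fasn at 0.64, and with the median over its probes Acaca was at 0.84.

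**Figure D3:**
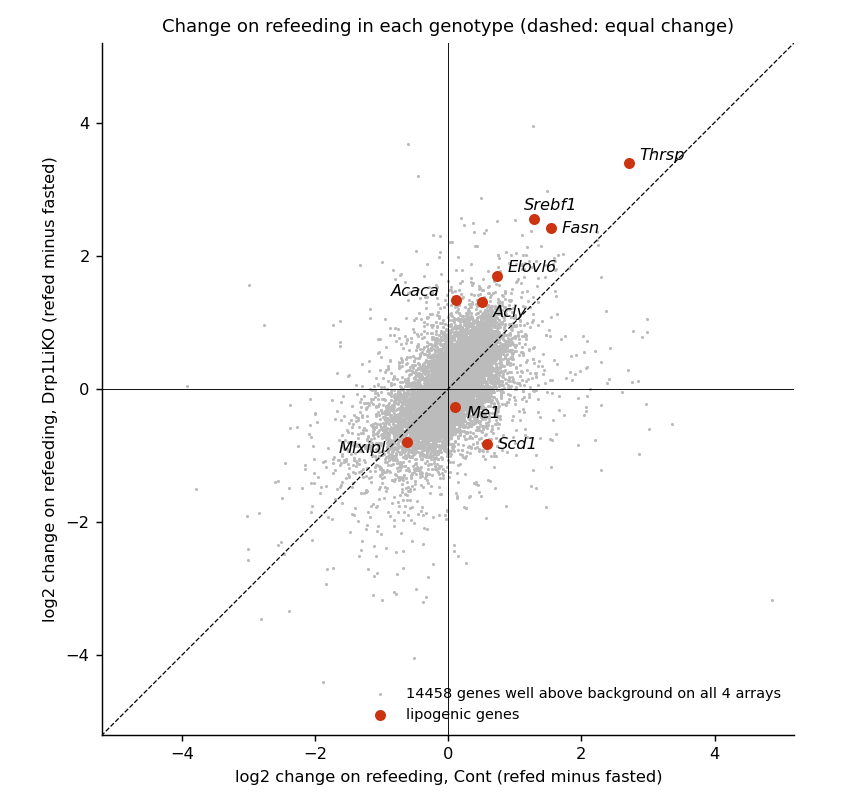
Log2 change on refeeding in Cont (x axis) against that in Drp1LiKO livers (y axis), each refed minus fasted, with 14458 genes in gray (those well above background on each of the 4 arrays), the 9 lipogenic genes in red and equal change as the dashed line. Of the 9 genes 6 lie above the line, Scd1 lies below it at 0.58 and -0.83, and Thrsp is the farthest from the origin.

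**Figure D4:**
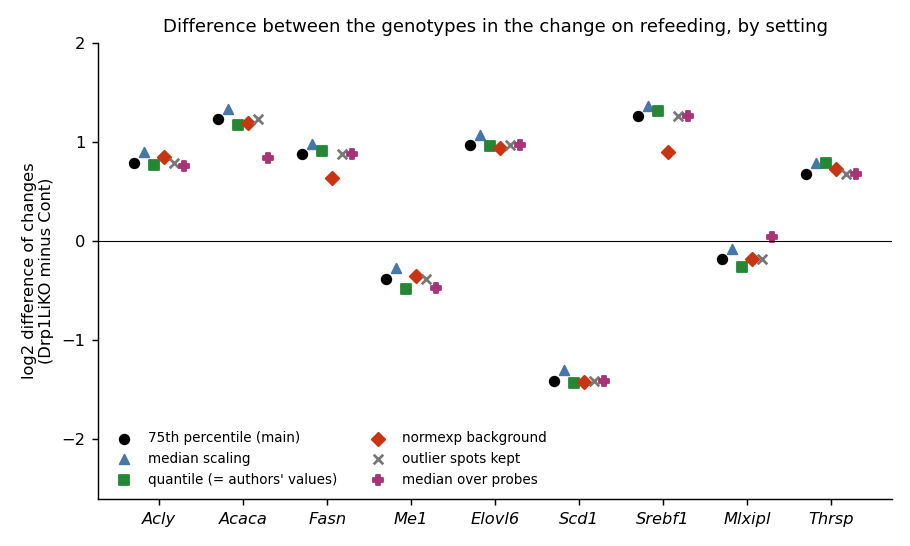
Difference between the genotypes in the log2 change on refeeding (y axis, Drp1LiKO minus Cont) for the 9 genes under 6 ways of processing, 1 marker each. The sign is the same under all 6 for every gene but Mlxipl, which is at 0.04 with the median over its probes. Keeping outlier spots changed no value, and the median over probes can differ only for Acly, Acaca, Me1 and Mlxipl.

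Compared within a feeding state, 8 of the 9 genes were lower in the Drp1LiKO than in the Cont liver on the fasted arrays, where 38.7% of all genes were higher, with a median log2 difference of -0.71 against -0.12 over the 14458 genes. The 7 hepatocyte markers described below had a median of -0.52 on the fasted and -0.53 on the refed arrays. Thrsp was 3.99-fold lower (-2.0, SE 0.20) and Srebf1 3.14-fold lower (-1.65, SE 0.23), and these 2 passed 2-fold, where 5.19% of all genes were called lower. Fasn, 1.96-fold lower (-0.97, SE 0.26), lay just under the limit and passed it with median scaling (-1.03) and, barely, with quantile normalization, and Me1 at 0.11 (SE 0.20) was the exception in direction. On the refed arrays 6 genes were lower and 3 higher, where 42.2% of all genes were higher, with a median of -0.27 against -0.08 over the 14458 genes. Scd1 and Thrsp were lower by 2-fold or more, where 6.35% of all genes were, with Thrsp 2.5-fold lower (-1.32, SE 0.20). Mlxipl was 1.86-fold lower (-0.89, SE 0.20) with the brighter probe and at -0.03 (SE 0.20) with the other. Acaca with its brightest probe (0.77, SE 0.20) and Elovl6 (0.57, SE 0.20) were higher in the refed Drp1LiKO liver, and Acly (0.09), Fasn (-0.10) and Srebf1 (-0.39) were within 2 SEs of the Cont level. The overlapping Acaca probe gave 0.71 (SE 0.20), but the probe on chr11:84009021-84009080 gave 0.09 (SE 0.25). The fourth Acaca probe was at least 2.74-fold lower in the refed Drp1LiKO liver. The difference between the changes on refeeding is the refed minus the fasted genotype difference, so it is not independent of these values.

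The only test the design allows is a limma model with feeding state and genotype as additive terms, which has 1 residual degree of freedom and counts any difference between the genotypes in their response as error. Of 21238 probes well above background on at least 2 arrays, 0 (0%) were called for feeding state at a Benjamini-Hochberg adjusted p under 0.05, while 5441 had an unadjusted p under 0.05. Of the 15 member probes tested, 0 were called and 9 had an unadjusted p under 0.05. Thrsp (log2 3.05, higher on refeeding in 2 of 2 genotypes) had a limma adjusted p of 0.172, the smallest value in this fit, which Fasn, Srebf1, Elovl6, both Mlxipl probes and 1 Acaca probe share with it. When only probes well above background on all 4 arrays were tested, 15 of 18016 (0.0833%) were called, and Thrsp was among them with a limma adjusted p of 0.0326, beside 0.0522 for Fasn and 0.0652 for Srebf1. Over all alternatives the limma adjusted p of Thrsp ranged from 0.0326 to 0.492, and it passed 0.05 with this filter alone.

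Around these enzymes, lists of genes that feed or steer the pathway were read in the same way. Beside their medians stand 0.11 in Cont and 0.11 in Drp1LiKO livers over the 14458 genes. Beside their 2-fold counts stand 4.48% and 5.61% of all genes higher on refeeding, and 5.83% and 7.15% lower. The 9 genes of acetyl-CoA and citrate supply (pyruvate dehydrogenase, the citrate carrier and others) did not pass 2-fold in either genotype, with median log2 changes of 0.07 in Cont and -0.04 in Drp1LiKO livers. Nor did any of the 8 other genes of NADPH supply, with medians of 0.25 and 0.33. Among 8 measured genes for the second carboxylase isoform and the regulators of acetyl-CoA carboxylase, 1 passed 2-fold in each genotype. This was Mid1ip1, a paralog of Thrsp whose protein promotes polymerization of the carboxylase, at 2.23 (SE 0.20) in Cont and 2.36 (SE 0.20) in Drp1LiKO livers. Its changes thus differed by 0.13 (SE 0.29), less than the measurement error.

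The median change of the 10 other desaturases and elongases was -0.02 in Cont and -0.60 in Drp1LiKO livers. The difference was below 0 for 9 of 10, where it was above 0 for 54.5% of all genes. The exception was Elovl1, an elongase of longer chains, at 0.31 in Cont and 0.65 in Drp1LiKO livers (SE 0.20 each). Lower by 2-fold or more were Elovl3 in Cont (-1.14, SE 0.20) and Elovl3 (-1.73), Elovl5 (-1.16) and the delta-5 desaturase Fads1 (-1.0) in Drp1LiKO livers, with an SE of 0.20 each. Scd2, the close relative of Scd1, was at 0.84 (SE 0.25) in Cont and 0.27 (SE 0.21) in Drp1LiKO livers.

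Among the 6 genes of SREBP processing, Insig1 and Insig2, which hold the precursor in the endoplasmic reticulum, went opposite ways in Drp1LiKO livers. Insig1, itself a target of SREBPs, changed by -0.18 (SE 0.21) in Cont and by 1.37 (SE 0.21) in Drp1LiKO livers. Insig2 changed by -0.68 (SE 0.20) in Cont and by -1.37 (SE 0.20) in Drp1LiKO livers. Srebf2, which encodes the SREBP of cholesterol synthesis, was at -0.07 (SE 0.47) in Cont and 1.3 (SE 0.21) in Drp1LiKO livers with a probe that was not well above background on the refed Cont array, so that its direction in Cont is not measured, and its other probe gave -0.40 in Drp1LiKO livers. The escort protein gene Scap (-0.21 and -0.34) and the protease genes Mbtps1 (0.13 and -0.07) and Mbtps2 (-0.09 and 0.35, the refed Cont array again not well above background) stayed within 2-fold in Cont and Drp1LiKO livers.

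Of 16 partners and co-regulators of SREBP-1c and ChREBP, Bhlhe40 was 2-fold or more higher in both genotypes (1.18 in Cont and 1.47 in Drp1LiKO livers, SE 0.20 each). Ep300, which encodes the coactivator p300, was lower on refeeding in Drp1LiKO livers (-1.03, SE 0.31). Its probe was not well above background on the refed Cont array, so in Cont only a bound of at least 1.1-fold lower can be given. The other 14 stayed within 2-fold, with Mlx, the dimer partner of ChREBP, at 0.31 and 0.96. Among 11 glycolytic genes and ChREBP targets, Fgf21, which encodes a hormone made by the liver, was at 1.47 in Cont and -1.77 in Drp1LiKO livers, and G6pc, the glucose-6-phosphatase of gluconeogenesis, at 1.38 and -0.74, with an SE of 0.20 each. Pklr, the liver pyruvate kinase and a classic ChREBP target, was at 0.78 (SE 0.21) and 0.99 (SE 0.21), just under 2-fold.

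Among 9 enzymes of glycerolipid synthesis, the phosphatidate phosphatases Lpin1 and Lpin2 were far lower on the refed Drp1LiKO array. Lpin1 changed by -0.99 (SE 0.21) in Cont and by -3.17 (SE 0.21) in Drp1LiKO livers, and Lpin2 by -1.14 (SE 0.20) and -3.10 (SE 0.21). Dgat2, an enzyme of the last step of triglyceride synthesis, was at 0.55 and 0.93 (SE 0.20 each). Of 11 genes of the insulin signal to SREBP-1c, Irs2 was lower in both genotypes (-1.35 and -1.98, SE 0.21 each), Insr was lower by 2-fold in Drp1LiKO livers alone (-0.87, SE 0.22, and -1.25, SE 0.21), and Lpin1, also in this list, is given above. The other 8 stayed within 2-fold.

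Genes known for their response to a meal served as a check of the feeding labels. Of 12 genes known to fall on feeding, 10 were lower on the refed array in Cont and 12 in Drp1LiKO livers, 4 and 8 of them by 2-fold or more, with medians of -0.53 and -1.41. Of all genes, 61.5% were higher on the refed array in Cont and 59.1% in Drp1LiKO livers. Igfbp1, a target of FoxO1 that insulin represses, changed by -1.88 (SE 0.20) and -4.41 (SE 0.20). Pdk4, which shuts off pyruvate oxidation in fasting, changed by -1.24 (SE 0.24) and -2.10 (SE 0.21), and Pck1, the key gluconeogenic enzyme, by -0.63 and -1.60 (SE 0.20 each). Angptl4 (-0.71 and -2.17), Cpt1a (-0.43 and -1.23) and Ppargc1a (-1.02 and -0.85) were lower too. The 2 exceptions in Cont were Fgf21 (1.47) and G6pc (1.38), both more than 2-fold higher, where 4.48% of all genes were. Of 12 other genes known to rise on feeding, 8 were higher in Cont and 9 in Drp1LiKO livers, with medians of 0.20 and 0.79, and 1 and 5 of them passed 2-fold. The 8 of 12 in Cont is near the 61.5% of all genes that were higher, so this list is a weak check there. Beside Mid1ip1 and Insig1, these include Sqle, an enzyme of cholesterol synthesis (-0.42, SE 0.22, and 1.05, SE 0.20), past 2-fold in Drp1LiKO livers alone.

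**Figure D5:**
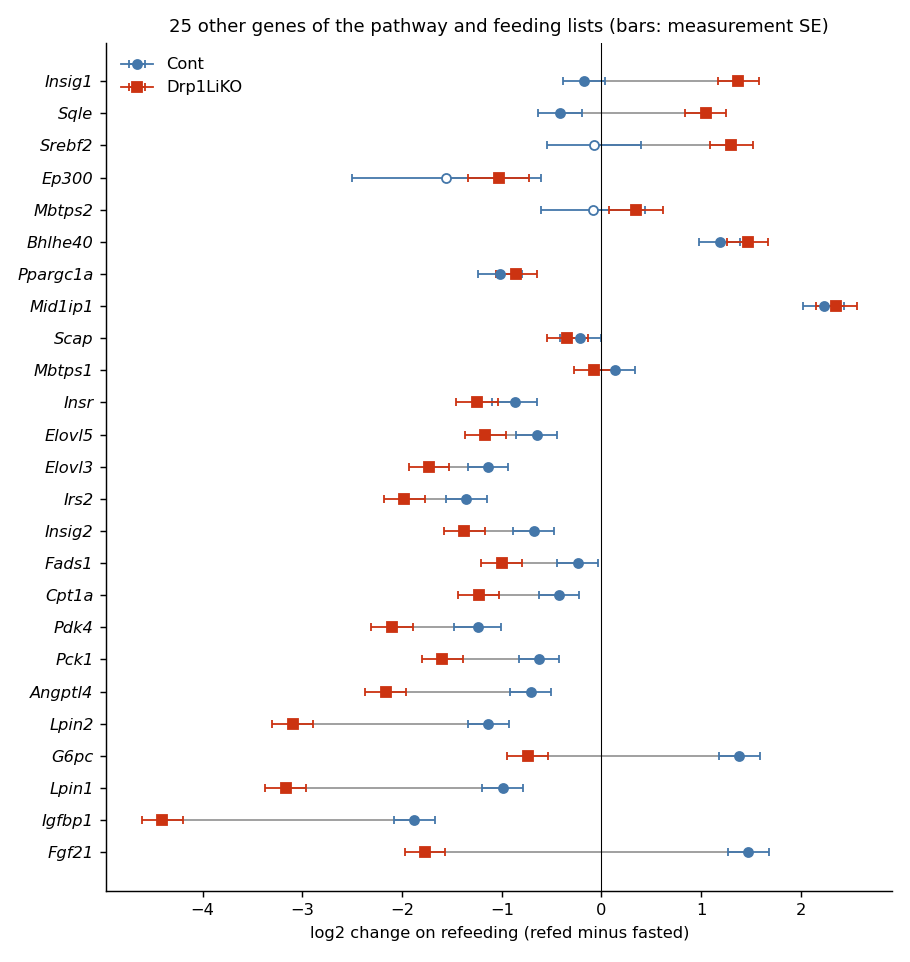
Log2 change on refeeding (x axis, refed minus fasted) in Cont (blue circles) and Drp1LiKO (red squares) livers for 25 other genes of the pathway and feeding lists that the text names by rule, ordered by the difference between the genotypes, with the measurement SE as bars and open markers where 1 of the arrays compared was not well above background (Ep300, Srebf2 and Mbtps2 in Cont). Insig1 at the top went from -0.18 in Cont to 1.37 in Drp1LiKO livers, and Fgf21 at the bottom from 1.47 to -1.77.

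Markers of other cells moved to some extent with the arrays. All 7 hepatocyte markers were well above background on all 4 arrays. Their summed signal relative to the 75th percentile was 2432 on the fasted Cont and 2974 on the refed Cont array. It was 1661 on the fasted Drp1LiKO and 2038.5 on the refed Drp1LiKO array. In Drp1LiKO minus Cont, 6 of 7 were lower in each feeding state, where 38.7% (fasted) and 42.2% (refed) of all genes were higher. The median log2 differences of the 7 were -0.52 and -0.53, against -0.12 and -0.08 over the 14458 genes. The 1 marker that was higher was at 0.60 on the fasted and at 1.24 on the refed arrays. The refed value passed 2-fold, which none of the lower markers did. Of 6 adipocyte markers, Adipoq, Plin1, Lep and Retn were well above background on no array. The other 2 were Cfd, at log2 levels of 2.08 on the fasted Cont, 4.45 on the refed Cont, -2.99 on the fasted Drp1LiKO and -1.83 on the refed Drp1LiKO array, and Cidec, a lipid droplet gene that fatty liver also expresses, at 2.0, 3.0, 3.59 and 2.77. The summed signal of the adipocyte list was 8.36 on the fasted Cont and 29.98 on the refed Cont array, where Cfd makes up most of it, and 12.2 on the fasted and 7.17 on the refed Drp1LiKO array. The 7 macrophage markers were all well above background, with sums of 72.6, 83.8, 93.5 and 160 on the arrays in this order. Among them Marco was 2-fold or more higher on refeeding in both genotypes (1.34 in Cont and 1.3 in Drp1LiKO livers, SE 0.20 each). Of the 6 neutrophil and lymphocyte markers 5 were measured, with sums of 6.37, 7.46, 3.76 and 10.5. The neutrophil genes S100a8 (0.38 in Cont and 2.36 in Drp1LiKO livers) and S100a9 (0.05 and 2.20, SE 0.20 each) passed 2-fold on refeeding in Drp1LiKO livers. The 5 sinusoidal endothelial markers summed to between 38.5 and 57.0, the 5 stellate cell markers to between 45.9 and 65.7, and the cholangiocyte markers, with Epcam well above background on no array, to between 0.494 and 1.08. In these lists Col1a1, a collagen of stellate cells, was past 2-fold in Drp1LiKO livers (0.68, SE 0.24, in Cont and -1.01, SE 0.21), as were the keratins Krt19 (0.61, SE 0.34, in Cont and 1.07, SE 0.23) and Krt7 (1.12, SE 0.38), which was not well above background on the Cont arrays. The part of these cells in the lipogenic values was not tested.

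The genes whose profile over the 4 arrays was nearest to the median profile of the 9 measured members, by Euclidean distance of log2 levels centred on each gene's mean, were Dclk3, Per2, Tuba4a, Tfrc and Hspa5, at distances of 0.13, 0.16, 0.18, 0.20 and 0.24. For comparison, Acly lay at 0.25, Elovl6 at 0.32 and Acaca at 0.48 from the profile they helped to define, and Thrsp at 2.51. Per2, a core clock gene, was at 0.50 in Cont and 1.49 in Drp1LiKO livers on refeeding, and Hspa5, the main chaperone of the endoplasmic reticulum, at 0.62 and 1.32. With 4 arrays many genes have a like profile, and the likeness is a description only.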

How the data were processed

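Liver RNA was measured on 4 one-color Agilent arrays on 1 slide and in 1 scan, with 43020 gene spots each. The authors deposited scanner files, whose background-subtracted intensity per spot was used. Feature Extraction 10.7.1.1 made them, per their headers, with no normalization between arrays. Feature Extraction 9.5.1.1 is named in the submitters' processing notes. The study's methods give another array design and RNA kit than the labels, and the files carry the design of the labels. A second intensity table of the authors, linear and with a median of 39.6 in every column, was recalculated as a quantile normalization of these signals with the mean log2 of repeated spots, with a largest log2 difference of 0.0000, so it has no ratio direction or centring to settle.

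Outlier spots were left out (166 to 190 an array), repeated spots were averaged, and log2 signals were set relative to the 75th percentile of each array. The number of arrays limits the precision. A probe was well above background if any spot of it was. A gene was read from its probe with the most such arrays, then the highest mean. Symbols were updated by accession to GRCm38.p6 (26761 probes matched), which changed no member. Calls were at 2-fold or more, and for the difference of changes at least 1 array of each genotype had to be well above background. The limma model was fitted to probes well above background on at least 2 arrays. An interaction leaves 0 residual degrees of freedom. Both procedures were also run on simulated data, with outcomes not given here. For limma the simulated data held no interaction of genotype and feeding, so that run does not cover the error such an interaction adds.

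Named are all member probes, pathway list genes past 2-fold on refeeding in either genotype or in lists of 6 genes or fewer, and the 5 nearest genes. Scd2, Elovl1, Mlx, Pklr and Dgat2 were added after their values were seen, some list genes counted in the lists are not reported here by name, and marker lists of any length are given by sums and members past 2-fold. The members and lists were chosen with earlier results of these data known. Alternatives were median scaling, quantile normalization, normexp with an offset of 50, the authors' values, the median over probes, outlier spots kept, a 1.5-fold limit, a filter on all arrays compared and, for limma, an intensity trend and feeding state alone. Exon and UTR positions of probes on mm9 and protein sequences were not used here. Software was Python 3.11.15, numpy 2.4.6, pandas 2.3.3, matplotlib 3.10.9, R 4.3.3 and limma 3.58.1.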

Additional observations from a re-analysis of the deposited data

Results flagged for a closer look

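The check covered 59 genes, the measured members and other genes of the pathway and marker lists. Of these, 13 had changes of opposite sign on refeeding in Cont and Drp1LiKO livers, each seen on 1 array a group. The sign was counted however small the change, and only 5 of the 13 were beyond 2 measurement SEs in both genotypes. No share over all genes stands beside this count, so it cannot be called high or low. The difference between the genotypes was not tested for any of the 13. Beyond 2 measurement SEs in both genotypes were Scd1 (0.58 in Cont and -0.83 in Drp1LiKO livers, a difference of -1.41), Fgf21 (1.47 and -1.77, a difference of -3.25), G6pc (1.38 and -0.74, a difference of -2.12), Col1a1 (0.68 and -1.01, a difference of -1.70) and Cidec (1.0 and -0.82, a difference of -1.82). In the other genes at least 1 of the changes lay within 2 SEs of 0. Their differences were 1.55 for Insig1, 1.38 for Srebf2, 1.46 for Sqle, -0.38 for Me1, 0.43 for Mbtps2, -0.20 for Mbtps1, -0.70 for the endothelial marker Lyve1 and -0.30 for the stellate cell marker Dcn. Srebf2 and Mbtps2, counted among the 13, were not well above background on the refed Cont array, so their direction in Cont is not measured.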

How the results depend on the processing

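No paired analysis was possible because each group has 1 array and the labels carry no replicate number beyond it. No member result past 2-fold changed sign under any alternative, and of 45 member results (9 genes in 5 comparisons) 43 kept their sign under all alternatives. The exceptions were Me1 in Cont and the Mlxipl difference, both under 2-fold. Keeping outlier spots left every member value as it was, so it could change no sign. The median over probes could move only Acly, Acaca, Me1 and Mlxipl, since the other measured members have 1 probe each. Quantile normalization, and the authors' values, which are the same, lowered the median change in Cont from 0.58 to 0.34 and moved the fasted genotype median from -0.71 to -0.48. The number of members at least 2-fold higher in the difference of changes was 2, and it was 1 with normexp, 1 with the median over probes and 6 at 1.5-fold. The number at least 2-fold lower on the fasted Drp1LiKO array was 2, and it was 3 with median scaling, quantile normalization and the authors' values (with Fasn) and 6 at 1.5-fold. The counts of members at least 2-fold higher on refeeding stayed at 3 in Cont and 6 in Drp1LiKO livers under every scaling and background setting, while those at least 2-fold lower in Drp1LiKO livers went from 0 to 2 with quantile normalization and the authors' values. Over all genes, those higher on refeeding were 737 in Cont and 1029 in Drp1LiKO livers, 439 and 501 with normexp, 246 and 527 with both arrays well above background, and 1657 and 3210 at 1.5-fold. Lower genes were 959 and 1312, and 287 and 387 with normexp, which turns the balance to more higher than lower in both genotypes. Genes higher in Drp1LiKO were 1455 on the fasted and 1404 on the refed arrays, more than the lower ones, and with normexp (358 and 363) or both arrays well above background (470 and 469) fewer. The other counts over all genes moved with the same settings: for the difference from 491 higher to 207, 271 and 1343, for lower genes on the fasted arrays from 938 to 569, 571 and 2493, and on the refed arrays from 1109 to 709, 644 and 2684. The limma count of 0 was 15 with the filter on all 4 arrays and 0 under the other 6 alternatives. The cause of these shifts was not tested. Fasn and Srebf1 were dim, at signals from 68.5 to 386, so their values depend most on the background correction, with changes of 1.07 and 1.03 in Cont and 1.71 and 1.93 in Drp1LiKO livers with normexp.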
